A study of Homo sapiens with 6 samples.

Results

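The 35 genes described here encode the proteins that carry glucose into the cell, break it down to pyruvate and lactate, gate the entry of pyruvate into the mitochondrion and run the pentose phosphate pathway. They were chosen by gene symbol from a table of 35993 genes, and each symbol matched 1 row. RNA came from MIA PaCa-2, an established human pancreatic carcinoma cell line, in 2 groups of 3 libraries. One group was left untreated and the other received 4 µM of rhCYGB, the recombinant human form of the heme protein cytoglobin, for 48 h. Both groups were kept in medium with 1% serum. All libraries therefore share 1 cell line, 1 dose and 1 time point, and the sources used here do not say whether the libraries of a group came from separate cultures, so that p-values measure the spread between these libraries only.

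Glycolysis splits 1 glucose into a pair of pyruvates. Hexokinase and phosphofructokinase spend ATP in its upper part, and phosphoglycerate kinase and pyruvate kinase regain ATP in its lower part. Pyruvate is then reduced to lactate by lactate dehydrogenase and exported, or oxidised to acetyl-CoA by pyruvate dehydrogenase, which the PDK kinases switch off by phosphorylation. Tumor cells often send much of their glucose to lactate even where oxygen is present, and pancreatic carcinoma cells are known for high glucose uptake. The transcription factors HIF-1 and MYC are known regulators of many of these genes.

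The read counts on genes summed to between 34838399 and 42271299 per library, so that 3 counts correspond to between 0.0669 and 0.0902 CPM, the read counts brought to a common library size with the TMM method of edgeR. Keratins KRT8 and KRT18 and vimentin were abundant in every library, while EPCAM had 0 counts and CDH1 at most 2. The 6 epithelial markers summed to 3844 to 4074 CPM in untreated and 2961 to 3167 CPM in rhCYGB libraries. The 4 mesenchymal markers summed to 7956 to 8134 CPM against 11630 to 12138 CPM. Of the markers of other cells, all 4 acinar genes were at 0 counts and the 4 endocrine genes summed to at most 0.0446 CPM. PTPRC and CD3E of immune cells and PECAM1 of endothelium were at 0, as was endogenous CYGB. The summed level of the 6 stellate cell markers was 144 to 155 CPM in untreated and 11.4 to 13.3 CPM in rhCYGB libraries, almost all of it from COL1A2, and that of the 3 endothelial markers was 109 to 122 CPM against 10.5 to 13.6 CPM, from CDH5. The 3 immune markers summed to 34.3 to 38.0 CPM against 70.4 to 72.4 CPM, all of it from CD68. The part of these shifts in the results given here was not tested.

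Of the 35 genes, 34 had enough counts for a test and LDHB did not. With 2-fold or more and a Benjamini-Hochberg adjusted p under 0.05 by the quasi-likelihood test of edgeR as the call, 10 of the 34 changed, against 27.1% of all 14728 genes tested. The 4 that rose were SLC2A1, HK2, ENO2 and PDK1, where 12.4% of all genes rose, and the 6 that fell were TPI1, PGAM1, PKM, PDK2, PDK3 and PDK4, where 14.7% of all genes fell. The share of changed genes was thus near that of the whole table. The replicates were tight, with a biological coefficient of variation of 5.48%, so that small differences also passed the adjusted p. At the adjusted p alone 32 of the 34 genes passed, against 77.6% of all genes, of which 12 rose (39.0% of all genes) and 20 fell (38.6% of all genes), and PFKFB4 and ALDOA did not pass. The CPM values of the 2 groups did not overlap for 31 of the 34 genes, against 79.5% of all genes. The median log2 fold change of the 34 genes was -0.23, against -0.0046 for all genes.

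In FPKM, read fragments scaled to transcript length and library depth, which allow levels of different genes to be compared, the 35 genes held 1.99% ± 0.035 (SD, n = 3) of the summed FPKM of all genes in untreated libraries and 1.49% ± 0.0090 in rhCYGB libraries. The 3 untreated libraries lay between 1.96% and 2.03% and the 3 rhCYGB libraries at up to 1.497%, without overlap. Unlike the CPM and fold changes, FPKM carry no TMM factor, which was 1.06 in each untreated and 0.932 to 0.955 in rhCYGB libraries. This alone places rhCYGB levels and sums lower against untreated ones in FPKM than in CPM. Shares within a library are not affected. An exact permutation test of 3 against 3 libraries cannot give a two-sided p under 0.10, which is the value printed for each share below that did not overlap. GAPDH alone was 48.6% of the summed FPKM of the 35 genes without rhCYGB and 53.9% with it. ENO1, TPI1 and PKM followed in the untreated libraries, with 14.4%, 8.77% and 7.39%. After rhCYGB SLC2A1 moved from place 23 to place 9 in the order of the 35 levels and HK2 from place 26 to place 10, while PGAM1 moved from place 9 to place 16. SLC2A1 and HK2 were next to each other in the rhCYGB order, and their ranges overlapped at 95.8 to 109 and 93.2 to 100.2 FPKM.

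**Figure D1:**
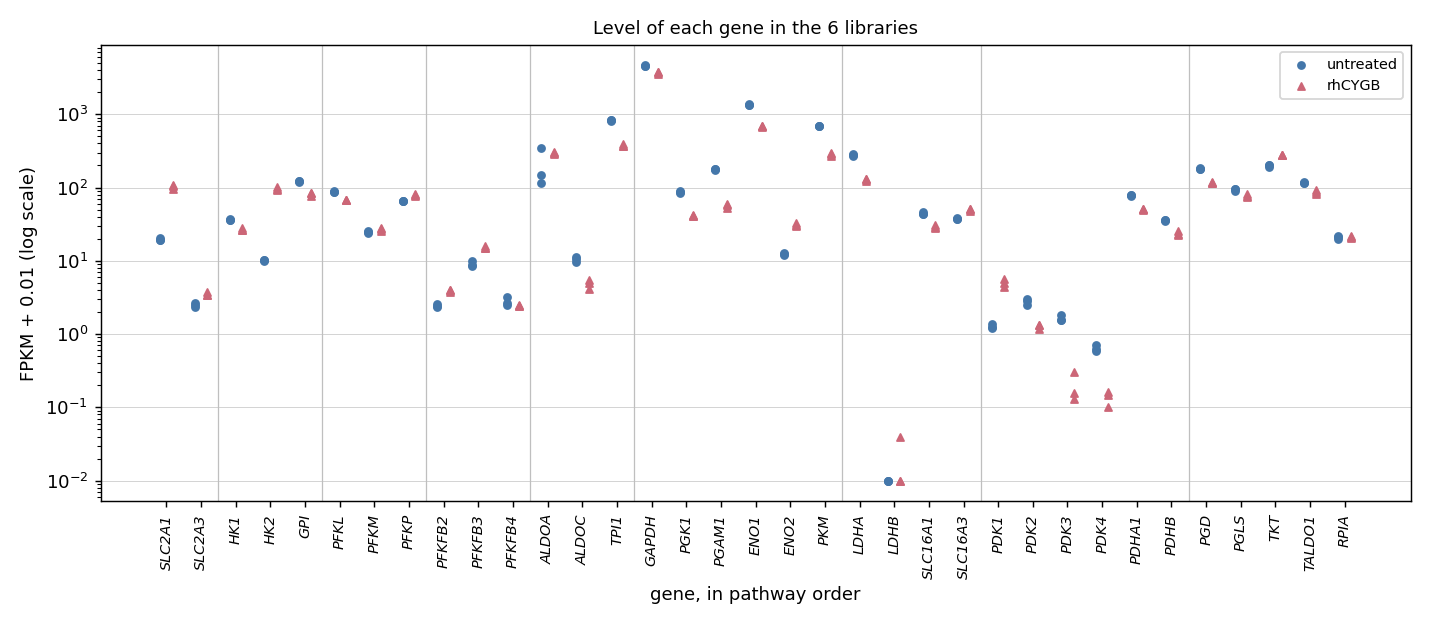
FPKM of the 35 genes in pathway order (log axis, 0.01 added so that 0 can be drawn), with 1 point per library, circles for 3 untreated and triangles for 3 rhCYGB libraries, and grey lines between functional groups. The triangles lie above the circles for SLC2A1, HK2, ENO2 and PDK1 and below them for most genes from TPI1 to LDHA, ALDOA spreads only in untreated libraries, and LDHB sits at the bottom.

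The sequences before the transcription starts are shown for the 4 genes that rose 2-fold or more, and for PGK1 and LDHA as genes that fell, because both directions occurred among genes with the same letters. Each is 250 bases that end at the base before a RefSeq transcription start in GRCh38.p14, read 5′ to 3′ on the strand of the gene. Other transcripts can start inside a window. Capitals mark ACGTG or GCGTG on either strand, the core letters that HIF-1 binds, so that a match on the other strand reads as CACGT or CACGC.
SLC2A1 (chr1:42958869-42959118, minus strand): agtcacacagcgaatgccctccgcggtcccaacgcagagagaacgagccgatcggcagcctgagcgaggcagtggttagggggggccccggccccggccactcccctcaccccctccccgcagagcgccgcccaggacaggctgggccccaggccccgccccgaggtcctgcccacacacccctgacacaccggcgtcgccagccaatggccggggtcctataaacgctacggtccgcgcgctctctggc
HK2 (chr2:74833877-74834126, plus strand): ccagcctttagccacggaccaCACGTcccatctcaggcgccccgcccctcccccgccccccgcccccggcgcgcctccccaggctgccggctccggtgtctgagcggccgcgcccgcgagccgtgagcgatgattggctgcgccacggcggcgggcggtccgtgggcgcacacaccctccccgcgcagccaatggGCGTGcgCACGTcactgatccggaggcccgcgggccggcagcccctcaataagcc
ENO2 (chr12:6914330-6914579, plus strand): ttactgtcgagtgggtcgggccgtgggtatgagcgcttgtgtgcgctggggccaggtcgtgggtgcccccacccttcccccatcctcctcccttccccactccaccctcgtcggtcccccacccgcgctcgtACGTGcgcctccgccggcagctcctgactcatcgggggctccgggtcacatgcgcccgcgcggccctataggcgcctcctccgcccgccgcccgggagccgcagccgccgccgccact
PDK1 (chr2:172555840-172556089, plus strand): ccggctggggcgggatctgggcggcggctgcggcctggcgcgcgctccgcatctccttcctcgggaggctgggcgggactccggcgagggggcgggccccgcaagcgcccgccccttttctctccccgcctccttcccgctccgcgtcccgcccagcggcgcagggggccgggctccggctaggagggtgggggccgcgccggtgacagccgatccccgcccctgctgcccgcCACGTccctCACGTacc
PGK1 (chrX:78103998-78104247, plus strand): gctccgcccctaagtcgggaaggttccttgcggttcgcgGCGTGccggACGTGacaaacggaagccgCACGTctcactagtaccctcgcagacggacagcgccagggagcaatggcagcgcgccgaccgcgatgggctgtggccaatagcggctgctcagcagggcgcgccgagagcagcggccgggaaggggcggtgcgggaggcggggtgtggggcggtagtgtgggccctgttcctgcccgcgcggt
LDHA (chr11:18394313-18394562, plus strand): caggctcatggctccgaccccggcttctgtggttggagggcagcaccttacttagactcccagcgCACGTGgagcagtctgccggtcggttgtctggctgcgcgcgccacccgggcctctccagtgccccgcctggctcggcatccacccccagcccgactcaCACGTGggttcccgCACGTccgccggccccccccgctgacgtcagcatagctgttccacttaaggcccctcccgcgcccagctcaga

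The HK2, LDHA and PGK1 windows hold 3 matches each. Matches that overlap on both strands, as in CACGTG, were merged and counted as 1 match. The HK2 window shown is that of NM_000189, which held 99.3% and 99.9% of HK2 FPKM in untreated and rhCYGB libraries. SLC2A1 has none in its window. Among 35116 such windows from RefSeq, 43.2% held at least 1 match, as did 32 of the 60 windows of the 35 genes (53.3%), which belong to 24 of the 32 genes with a window. A match was present for 8 of 10 genes that rose and for 14 of 19 that fell. These counts are per gene over all its windows, of which some genes have several, and no such share was counted over all genes. They are thus not comparable with the share of windows. Of the genes that fell 2-fold or more, TPI1, PDK2 and PDK3 had a match and PGAM1, PKM and PDK4 had none. CACGTG, the letters bound by MYC with its partner MAX, which overlap the first motif, was found in 6.34% of all windows and in 8 of the 60. It was present for 2 of the genes that rose, PFKFB3 and HK2, the latter in the window of its minor start that is not shown, and for 5 that fell, ALDOC, GAPDH, LDHA, PDK2 and PDHB, as well as for ALDOA. SLC2A3, PFKFB2 and SLC16A1 had no window in the table. A match of letters is a description and not a measured binding site.

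Of the transcripts for glucose transporters, SLC2A1 and SLC2A3 encode the facilitative transporters GLUT1 and GLUT3. SLC2A1 was at 69.5, 74.1 and 68.5 CPM in untreated libraries 1 to 3 and at 437, 397 and 420 CPM in rhCYGB libraries 1 to 3. Every rhCYGB library was thus far above every untreated one. The log2 fold change was 2.56 (SE 0.05, edgeR adjusted p = 9.9e-16), a 5.91-fold rise. SLC2A3 was at 9.48 to 11.03 CPM against 15.2 to 17.8 CPM and also rose, by 0.66 on the log2 scale. SLC2A1 held 88.7% ± 1.1 of the summed FPKM of the pair in untreated libraries and 96.7% ± 0.42 after rhCYGB, and that sum was 22.1 ± 0.61 against 107 ± 6.5 FPKM.

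HK2, the hexokinase isoform that many tumors express at a high level, had the largest rise of the 35 genes. Its level was 61.3, 61.8 and 58.7 CPM in untreated libraries and 633, 646 and 665 CPM in rhCYGB libraries. The 3 libraries within each group lay close together and the groups were far apart. This was a log2 fold change of 3.42 (SE 0.04, edgeR adjusted p = 4.0e-17), or 10.7-fold, and 99.3% of all genes tested had a lower value. HK1, the isoform found in most tissues, was at 140 to 141 CPM against 112 to 117 CPM and fell by 0.29 on the log2 scale. GPI, the isomerase of the next step, fell by 0.41, from 542 ± 8.0 to 408 ± 12 CPM.

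The order of both hexokinases therefore turned around. HK1 held 78.4% ± 0.49 of their summed FPKM without rhCYGB and 21.7% ± 0.076 with it, and HK2 rose from 21.6% to 78.3%. The shares did not overlap (two-sided exact permutation p = 0.10, n = 3). Their summed level went from 46.5 ± 0.25 to 122 ± 4.8 FPKM. HKDC1, a further hexokinase that is no member of the set and was counted in after its values had been seen, rose by 2.73 (SE 0.08) on the log2 scale, from 29.8 ± 4.7 to 198 ± 9.2 CPM. With HKDC1 the shares were 67.4% HK1, 18.6% HK2 and 14.04% HKDC1 in untreated libraries and 15.9%, 57.2% and 26.9% after rhCYGB.

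Phosphofructokinase commits the sugar to glycolysis and is built from PFKL, PFKM and PFKP subunits. PFKP rose by 0.46 on the log2 scale, from 184 ± 1.6 to 253 ± 1.9 CPM, and PFKM rose by 0.26. PFKL fell by 0.21, from 273 ± 1.7 to 237 ± 7.5 CPM. These were small differences, and that of PFKM missed the threshold with total counts in place of TMM (log2 fold change 0.09, adjusted p = 0.0501). SENP1, which overlaps PFKM, had 34.0% as many counts as PFKM. The summed level of the 3 subunits was 177 ± 0.74 and 174 ± 2.4 FPKM, without the TMM factor and thus not on the scale of the fold changes above. Within it PFKP went from 36.9% to 45.9% and PFKL from 49.3% to 38.8%, without overlap (exact permutation p = 0.10 for each).

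The PFKFB enzymes make and remove fructose 2,6-bisphosphate, the strongest activator of phosphofructokinase. PFKFB3, an isoform with a high kinase to phosphatase ratio, was at 39.7 to 46.3 CPM in untreated and 77.2 to 84.3 CPM in rhCYGB libraries, and rose by 0.91 on the log2 scale. PFKFB2 rose by 0.87, from 16.1 ± 0.75 to 29.5 ± 0.61 CPM. PFKFB4 was at 12.3, 10.1 and 9.27 CPM against 10.1, 10.5 and 9.85 CPM, so that the groups overlapped (log2 fold change -0.05, edgeR adjusted p = 0.66). PFKFB3 held the largest part of the family in both groups, 63.3% ± 2.4 and 70.8% ± 0.93 of 14.3 and 21.6 FPKM.

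**Figure D2:**
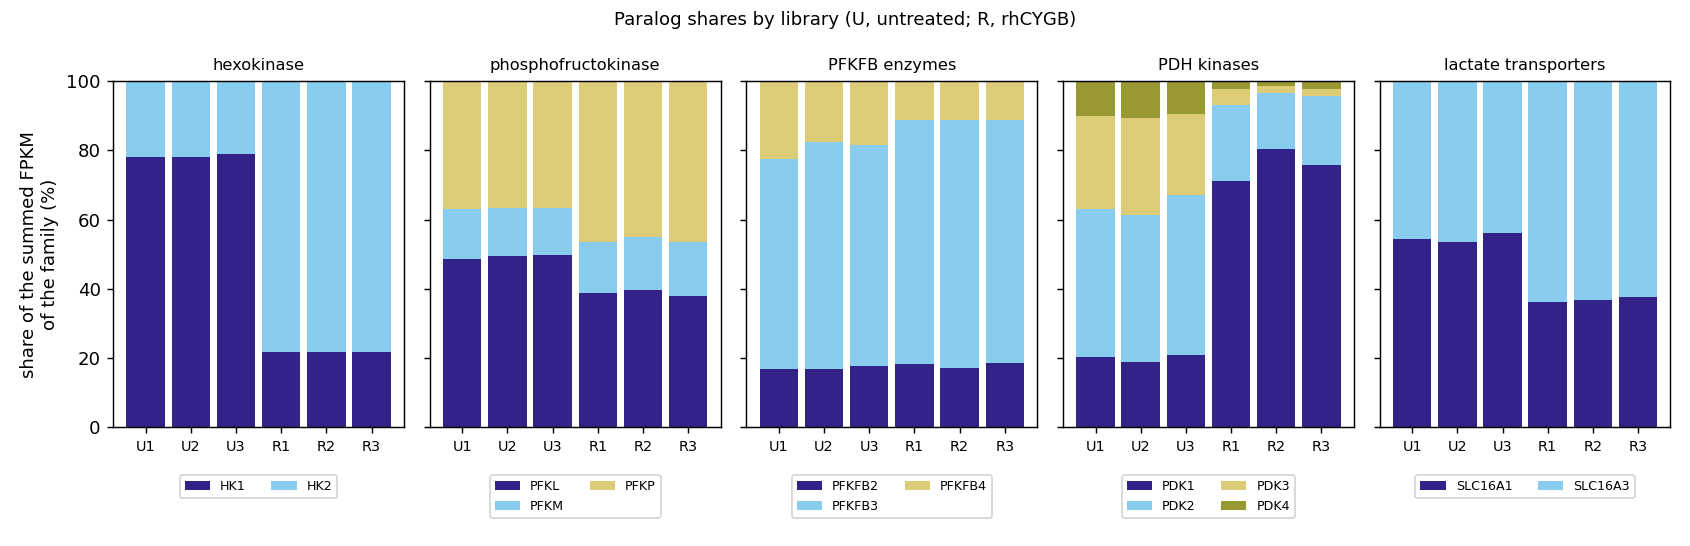
Share of each paralog in the summed FPKM of its family, in percent, with 1 stacked bar per library (U1 to U3 untreated, R1 to R3 rhCYGB) for hexokinases, phosphofructokinase subunits, PFKFB enzymes, pyruvate dehydrogenase kinases and lactate transporters. HK2 takes 78.3% of the hexokinase bar after rhCYGB against 21.6% before, and PDK1 75.8% of the kinase bar against 20.04%. The PDK1 share also counts its noncoding transcripts.

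Aldolase A, from ALDOA, splits fructose 1,6-bisphosphate, and the file lists a second gene over part of it. The untreated libraries had 1152, 388 and 495 CPM and the rhCYGB libraries 1009, 1006 and 976 CPM. Untreated library 1 was above all others and untreated libraries 2 and 3 were far below, so that the groups overlapped (log2 fold change 0.56, SE 0.26, edgeR adjusted p = 0.063). Without untreated library 1 the value was 1.17 (adjusted p = 1.5e-08). LOC112694756, listed on chromosome 16 at 30064411 to 30081741, overlaps ALDOA at 30075600 to 30083528 in the positions of the transcript table, whose build the table does not name.

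LOC112694756 had 291, 1036 and 881 CPM in the untreated and 92.9, 39.4 and 66.3 CPM in the rhCYGB libraries. It thus held 20.1%, 72.8% and 64.0% of the counts of both in untreated libraries and 8.43%, 3.77% and 6.36% after rhCYGB. The sum of both varied little within a group, at 1414 ± 34 CPM against 1064 ± 34 CPM. Tested as 1 gene, a step chosen after seeing the data, the sum fell by 0.41 on the log2 scale (SE 0.03, edgeR adjusted p = 1.7e-08), the opposite direction to ALDOA alone. The direction of ALDOA therefore depends on how its reads are divided. The ALDOA transcript NM_184043, which ends where LOC112694756 ends, was 7.48% ± 2.9 of ALDOA FPKM without and 25.9% ± 8.2 with rhCYGB, and NM_184041 was 83.4% ± 3.3 against 70.0% ± 7.8.

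**Figure D3:**
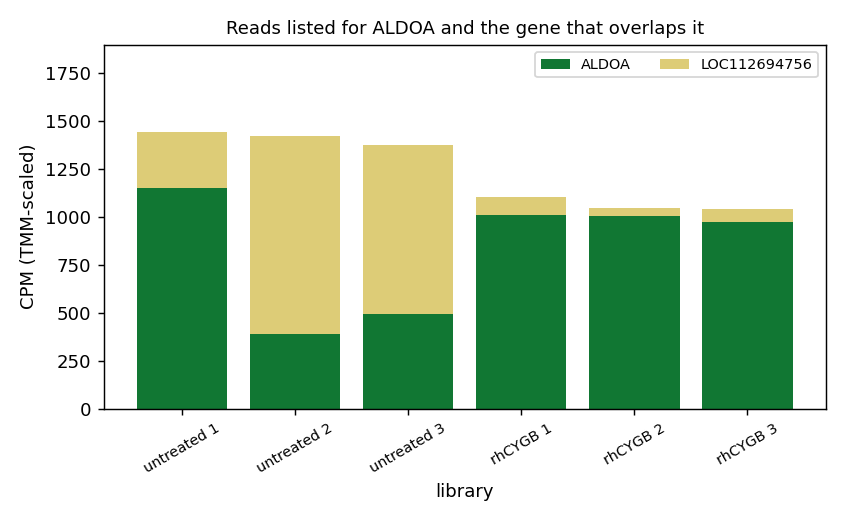
CPM of ALDOA (green) and of LOC112694756 (yellow), which overlaps it, stacked for each of the 6 libraries. The split between both differs strongly among the 3 untreated libraries, while the height of the whole bar is 1376 to 1443 CPM in untreated and 1043 to 1102 CPM in rhCYGB libraries.

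The other genes of this step fell. TPI1, which interconverts both triose phosphates, was at 1226, 1241 and 1248 CPM and then at 645, 613 and 585 CPM. All rhCYGB libraries were lower, and the fall was just inside the 2-fold limit, with a log2 fold change of -1.01 (SE 0.04, edgeR adjusted p = 1.8e-12), and without rhCYGB library 3 the fall was -0.97 and no longer 2-fold. ALDOC, the aldolase known from brain, was at 16.4 to 19.6 CPM against 8.12 to 10.4 CPM and stood just on the other side, with -0.94. Without untreated library 2 or rhCYGB library 1 it was past 2-fold, at -1.01 and -1.02.

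In lower glycolysis 5 of 6 genes fell and 1 rose at the adjusted p, where 38.6% of all genes fell and 39.0% rose. PGAM1, the phosphoglycerate mutase, fell most. It was at 341, 346 and 348 CPM in untreated and 126, 118 and 126 CPM in rhCYGB libraries, and all rhCYGB libraries were far below all untreated ones. The log2 fold change was -1.48 (SE 0.04, edgeR adjusted p = 3.9e-14), a 2.80-fold fall. PKM, the pyruvate kinase of the last step, was at 1738, 1735 and 1714 CPM and then at 806, 775 and 802 CPM, with no overlap and a log2 fold change of -1.12 (SE 0.03, edgeR adjusted p = 7.1e-14). PGK1, the first ATP-yielding enzyme, fell by 0.92 from 447 ± 8.6 to 237 ± 1.7 CPM, and ENO1, the main enolase, fell by 0.82 from 2656 ± 36 to 1505 ± 11 CPM.

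GAPDH, the triose phosphate dehydrogenase, is also the gene to which the qRT-PCR of the study was normalized. Its protein was the loading control for immunoblots of cultured cells. GAPDH RNA was at 6341, 6399 and 6171 CPM in untreated and 5854, 5597 and 5622 CPM in rhCYGB libraries. All rhCYGB libraries were lower, by little, with a log2 fold change of -0.15 (SE 0.03, edgeR adjusted p = 1.3e-04). Of all genes tested 43.4% had a lower log2 fold change. Its value was between -0.31 and -0.14 under all 18 alternatives tried.

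ENO2, the enolase known from neurons, went the other way from ENO1. It was at 30.5, 31.5 and 29.1 CPM in untreated and 80.9, 87.4 and 88.3 CPM in rhCYGB libraries, and all rhCYGB values were above all untreated ones. It rose by 1.49 on the log2 scale (SE 0.05, edgeR adjusted p = 8.7e-13), or 2.82-fold. ENO1 nevertheless stayed the main form. The share of ENO2 in the FPKM of both was 0.90% ± 0.029 in untreated and 4.36% ± 0.21 in rhCYGB libraries (exact permutation p = 0.10), and their sum went from 1367 ± 9.3 to 712 ± 16 FPKM.

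PKM is spliced into an M1 and an M2 form with alternative exons, and M2 is the form found in most tumor cells. NM_002654, the M2 transcript, was 94.8% ± 0.27 of PKM FPKM in untreated and 94.1% ± 0.17 in rhCYGB libraries. The M1 transcripts NM_182470 and NM_182471 were together 2.71% ± 0.27 and 3.31% ± 0.14. The fall of PKM was therefore a fall of its M2 transcript, with little change in the proportion of forms. Transcript values are assembled estimates by the authors and not read counts of unique exons.

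**Figure D4:**
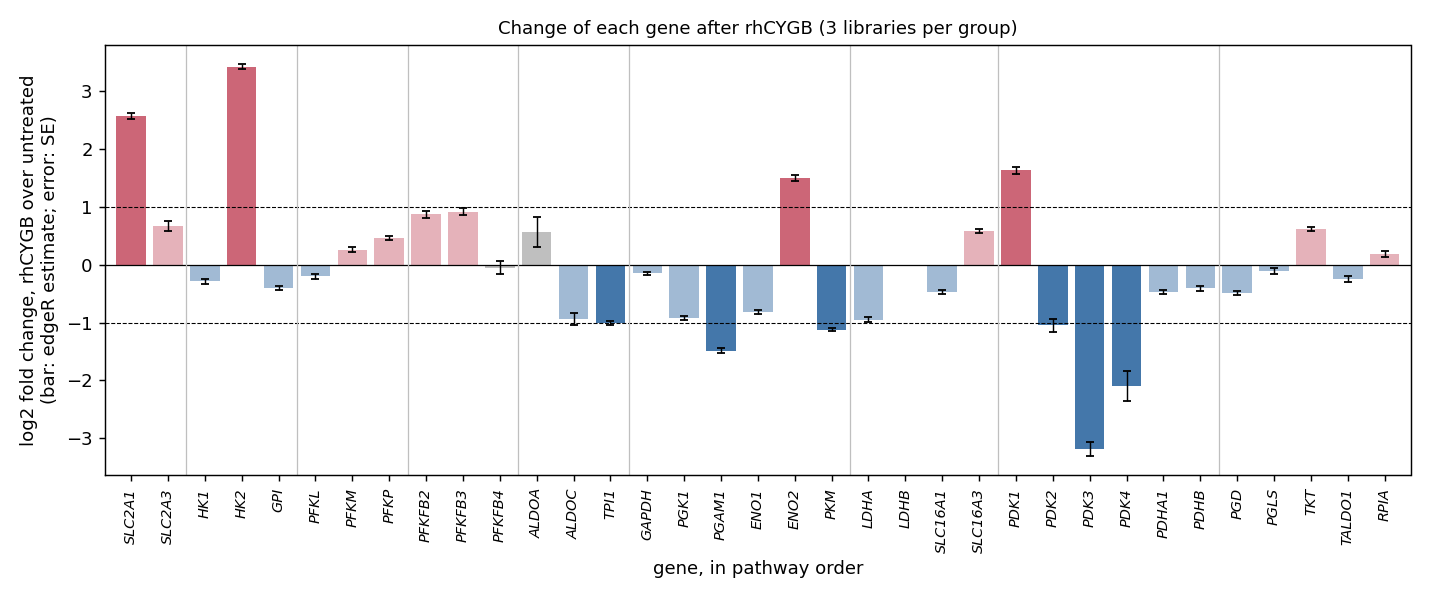
Log2 fold change of rhCYGB over untreated for the 34 genes tested, in pathway order, with bars for the edgeR estimate and SE as the error bar (n = 3 libraries per group). Red bars rose, blue bars fell and grey bars did not pass, full colour marks 2-fold or more, dashed lines mark 2-fold, and the space for LDHB is empty. The tallest bars are HK2 at 3.42 and PDK3 at -3.18.

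Of the lactate dehydrogenase subunits LDHA and LDHB only LDHA had enough counts for a test. LDHA was at 646, 658 and 690 CPM in untreated and 348, 337 and 347 CPM in rhCYGB libraries, nearly 2-fold apart (log2 fold change -0.95, SE 0.04, edgeR adjusted p = 2.7e-12). LDHB, the subunit of heart-type lactate dehydrogenase, had 0 counts in every untreated library and 0, 0 and 2 counts in rhCYGB libraries 1 to 3. This is under the floor of 3 counts, so that no fold is given.

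The lactate transporters moved in opposite directions. SLC16A1, which encodes MCT1, was at 185 to 196 CPM against 133 to 142 CPM and fell by 0.47 on the log2 scale, while SLC16A3, which encodes the lactate exporter MCT4, was at 79.6 to 84.3 CPM against 119 to 124 CPM and rose by 0.58. SLC16A3 thereby passed SLC16A1, with 45.3% ± 1.4 of their FPKM in untreated and 63.2% ± 0.79 in rhCYGB libraries (exact permutation p = 0.10), at a nearly equal sum of 82.2 ± 1.5 and 78.6 ± 3.3 FPKM. CSNK1D overlaps SLC16A3 and had 181% as many counts, and the sources used here do not say whether counting used strand. BSG, the chaperone of both transporters, fell by 0.25 on the log2 scale.

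The kinases that inhibit pyruvate dehydrogenase split in the same way. PDK1, a known HIF-1 target, was at 12.3, 12.5 and 13.4 CPM in untreated and 40.0, 39.1 and 38.9 CPM in rhCYGB libraries. Its groups were narrow and well apart, with a log2 fold change of 1.63 (SE 0.06, edgeR adjusted p = 1.4e-12), or 3.09-fold. PDK3 was at 17.3, 19.5 and 19.5 CPM and then at 2.13, 2.34 and 1.74 CPM. All 3 rhCYGB libraries were far lower. It was the largest fall of the 35 genes, with a log2 fold change of -3.18 (SE 0.12, edgeR adjusted p = 1.9e-12), or 9.1-fold lower, and 0.815% of all genes tested had a lower value. With limma on log2(FPKM + 1), a scale that understates changes of low levels, it was -1.16.

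PDK4, the isoform induced by fasting in muscle and liver, was low throughout, at 2.28, 2.72 and 2.40 CPM against 0.619, 0.421 and 0.678 CPM. It fell by 2.1 on the log2 scale (SE 0.25, edgeR adjusted p = 1.8e-06). PDK2 was at 8.78, 9.82 and 10.5 CPM against 4.66, 4.45 and 4.99 CPM, with no overlap. Its log2 fold change of -1.05 (SE 0.11, edgeR adjusted p = 6.1e-07) was close to the 2-fold limit, and without untreated library 3 it was -0.98.

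Together the 4 kinases had 6.32 ± 0.41 FPKM in untreated and 6.58 ± 0.46 FPKM in rhCYGB libraries, with overlapping values. This sum includes NR_103729, a noncoding PDK1 transcript, at 0.369 to 0.536 FPKM in untreated and 2.49 to 4.27 FPKM in rhCYGB libraries. It is thus no sum of coding transcripts, which was not compared between the groups. Their composition changed from 43.8% PDK2, 26.1% PDK3, 20.04% PDK1 and 10.1% PDK4 to 75.8% PDK1, 19.3% PDK2, 2.92% PDK3 and 1.98% PDK4. These shares also count the noncoding transcripts of PDK1, and shares of coding transcripts alone were not computed. The share of each kinase in untreated libraries did not overlap that in rhCYGB libraries (exact permutation p = 0.10 for each). Of PDK1 FPKM, NR_103729, a transcript without a coding sequence in RefSeq, was 36.7% ± 4.9 in untreated and 65.9% ± 9.2 in rhCYGB libraries, so that the FPKM of coding PDK1 transcripts alone was 0.730 ± 0.031 in untreated and 1.61 ± 0.25 in rhCYGB libraries. PDHA1 and PDHB, the subunits of the first enzyme of the pyruvate dehydrogenase complex, fell by 0.48 and 0.41 on the log2 scale, from 283 ± 4.0 to 203 ± 5.1 CPM and from 57.5 ± 0.72 to 43.2 ± 2.2 CPM.

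For PFKFB4, which did not pass the test as a gene, the transcript NM_001317137 was at 0% in every untreated library and at 49.6%, 18.2% and 44.0% in rhCYGB libraries 1 to 3. The spread among these is wide, and the gene had few reads.

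None of the 5 pentose phosphate genes changed 2-fold. TKT, the transketolase that connects the pathway with glycolysis, was at 582 to 628 CPM against 912 to 940 CPM and rose by 0.62 on the log2 scale. PGD, the NADPH-forming phosphogluconate dehydrogenase, was at 433 to 451 CPM against 315 to 318 CPM and fell by 0.48. TALDO1, the transaldolase, fell by 0.25, from 150 ± 2.5 to 126 ± 9.4 CPM.

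The remaining pair differed little between groups. PGLS, the lactonase of the oxidative branch, was at 104, 104 and 95.0 CPM against 97.4, 94.9 and 87.0 CPM, and these overlapped (log2 fold change -0.12, edgeR adjusted p = 0.046). RPIA, the ribose phosphate isomerase, was at 38.6 to 42.2 CPM against 44.4 to 48.8 CPM and passed with 0.18, but not with upper-quartile factors, total counts or FPKM, under which its log2 fold change was 0.02 to 0.04.

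Of 49 other genes of these pathways 34 were tested, of which 8 rose and 20 fell at the adjusted p, with 2 and 7 by 2-fold or more. Over all genes 39.0% rose and 38.6% fell at the adjusted p, and 12.4% rose and 14.7% fell by 2-fold or more. HKDC1 has been given above. Among sugar transporters, SLC2A6, SLC2A10 and SLC2A12 fell by 1.45, 1.75 and 2.41 on the log2 scale, and SLC2A8 rose by 1.497 from a low level of 0.952 ± 0.18 CPM. BPGM, which makes 2,3-bisphosphoglycerate, fell by 1.52, PRPS2, which uses ribose 5-phosphate, fell by 1.38, and PGAM4, a near-identical copy of PGAM1 whose reads may be shared with it, fell by 1.45. The remaining gene of the 7 had too few counts to be named.

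Branches that leave glycolysis are given by their counts at the adjusted p, where 39.0% of all genes rose and 38.6% fell, and differences between these lists were not tested. Of 7 hexosamine pathway genes, which make UDP-GlcNAc for glycosylation, 6 rose and none fell. GFPT1, whose enzyme draws fructose 6-phosphate into that pathway, rose by 1.91 (SE 0.05) on the log2 scale from 35.9 ± 1.9 to 135 ± 4.4 CPM, and UAP1, at its end, rose by 1.39 (SE 0.04) from 280 ± 5.2 to 735 ± 30 CPM. Of 17 glycogen genes 13 were tested, of which 2 rose and 7 fell. Glycogen synthase GYS1, branching enzyme GBE1 and phosphorylase kinase subunit PHKB fell by 1.11, 1.47 and 1.07, while the phosphorylase PYGB rose by 1.46, from 797 ± 27 to 2191 ± 1.7 CPM.

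Of 8 gluconeogenesis genes only 3 were tested and 5 were at 0 counts in every library. PCK2, the mitochondrial phosphoenolpyruvate carboxykinase, rose by 1.79 (SE 0.06) on the log2 scale, from 62.1 ± 7.2 to 215 ± 8.6 CPM, and both others fell. In the TCA cycle 3 of 18 genes rose and 12 fell (39.0% and 38.6% of all genes), with IDH2, SUCLA2 and SDHC past 2-fold at -1.15, -1.04 and -1.24. Without rhCYGB library 1 or 2 SUCLA2 was -0.98 and -0.99, under 2-fold. The median log2 fold change was -0.42 for these 18 genes and 0.31 for the hexosamine genes.

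Among 16 regulators of glucose metabolism 13 were tested, of which 12 rose and 1 fell at the adjusted p, where 39.0% of all genes rose and 38.6% fell. MYC rose by 2.21 (SE 0.04) on the log2 scale, from 357 ± 9.0 to 1654 ± 49 CPM. ARNT, the partner of HIF-1 alpha, rose by 1.19 from 45.4 ± 0.39 to 104 ± 8.5 CPM, and PRKAA2, a catalytic subunit of AMP-activated kinase, rose by 1.12. PRKAA2 was under 2-fold with upper-quartile factors (0.97) and total counts (0.95). HIF1A itself, whose protein is controlled mainly by degradation, was at 282 to 305 CPM against 309 to 330 CPM and rose by 0.14. TXNIP, an inhibitor of glucose uptake, was the gene that fell, by 0.59.

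**Figure D5:**
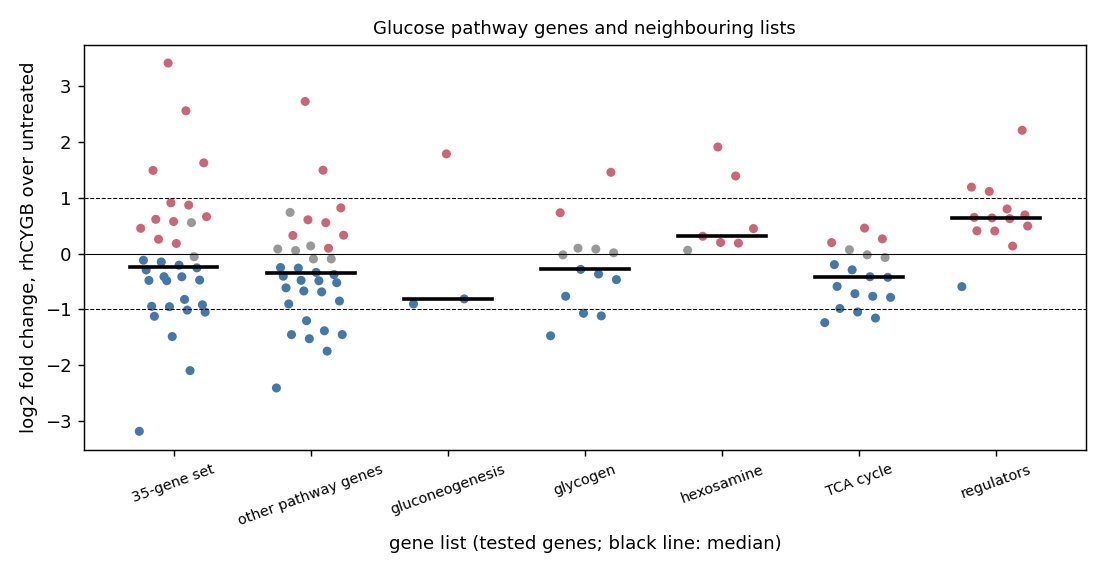
Log2 fold change of rhCYGB over untreated for every tested gene of the 35-gene set and of 6 further lists, with 1 point per gene, red for genes that rose and blue for genes that fell at the adjusted p, grey for the others, a black line for the median and dashed lines at 2-fold. The medians are below 0 for the 35-gene set (-0.23) and the TCA cycle (-0.42) and above 0 for the hexosamine genes (0.31) and the regulators (0.64).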

How the data were processed

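RNA from 3 untreated and 3 rhCYGB-treated libraries of MIA PaCa-2 was sequenced from stranded mRNA libraries. The submitters' processing notes name FastQC 0.11.7, HISAT2 2.1.0 and StringTie 2.1.3b, and the authors trimmed, mapped and assembled reads with these tools. Whole-number read counts per gene and transcript, not normalized, were deposited by the authors, together with FPKM values, which the authors scaled to transcript length and depth. The tables do not name a genome build, and the notes list a mouse build although the features are human. Positions are therefore given as listed.

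Counts were tested with edgeR 4.0.16 in R 4.3.3 (filterByExpr, TMM, quasi-likelihood test, Benjamini-Hochberg adjustment over 14728 genes). Of 35993 genes 15205 were at 0 throughout and 6060 were filtered. A change was an adjusted p under 0.05 with 2-fold or more, and log2 CPM used a prior count of 2. Depth was 34838399 to 42271299 counts, and floors cover counting error only, since reads carry no molecular identifiers. Shares were compared with two-sided exact permutation tests. No library was a second copy of another (for pairs within a group, chi-square over degrees of freedom 4.81 to 6.88). All 35 gene counts equalled the sums of their transcripts. On simulated counts with 200 changed genes edgeR recovered 97.4% of those that passed the filter and called 6 of 14316 unchanged genes. The data held far more changed genes, 3998 of 14728. Recovery of genes close to the 2-fold limit was not tested separately.

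The members and lists were chosen with earlier results of these data known. Every member is named. Of the other lists the genes changed 2-fold whose group with the higher level averaged 100 normalized counts or more are named, as well as HIF1A, TXNIP and BSG, which were chosen after their values were seen. Not every listed gene is reported here. Transcripts are named where they held 10% or more of the gene and their share differed by 10 percentage points or more without overlap, and for PKM. Alternatives were DESeq2 size factors, upper-quartile factors, total counts, DESeq2 1.42.0, limma 3.58.1 on log2(FPKM + 1) and log2(FPKM + 0.1), other filters, transcript sums, a replicate block and leaving out each library. Sums with overlapping genes and pseudogenes were added after seeing the data.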

Additional observations from a re-analysis of the deposited data

How the results depend on the processing

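Of 612 fold changes of the 34 tested genes under the alternatives, 598 kept their direction and side of the adjusted p threshold. The direction reversed for ALDOA summed with LOC112694756 (-0.41), and the sign of PFKFB4, which passed in no fit, turned without untreated library 1 (0.067, with a range of -0.13 to 0.067 when each library was left out in turn). ALDOA passed with at least 10 counts in every library (0.54), with the block (0.72) and without untreated library 1 (1.17). PGLS missed the threshold without untreated library 1 or 2, without rhCYGB library 3 and with no filter, and RPIA and PFKM under the scalings named with them. PDK2 and PDK4 were -0.74 and -0.54, under 2-fold, with limma on log2(FPKM + 1), as were SLC2A8 (0.57), SLC2A10 (-0.88), ARNT (0.95) and PRKAA2 (0.32, and 0.79 on log2(FPKM + 0.1)).

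The number of the 34 genes changed was 10 in the reported fit, 13 with upper-quartile factors, total counts or log2(FPKM + 0.1), which added ALDOC, PGK1 and LDHA, and 9 to 11 when 1 library was left out. It was 18 at a 1.5-fold and 4 at a 4-fold limit, and the shares of all genes at these limits were not counted. Over all genes 3998 changed, 1833 of them higher, against 4081 with 1448 higher for upper-quartile factors, 4114 with 1395 higher for total counts, 3609 with 1282 higher for log2(FPKM + 0.1) and 1977 for log2(FPKM + 1). With log2(FPKM + 1), a scale that understates changes of low levels, 10 of the 34 genes changed. These were not the same 10, since PDK2 and PDK4 were under 2-fold there and PGK1 and LDHA past it. The share of the 34 genes was there above that of all genes, and the part of their expression level in this was not tested. When 1 library was left out, 3982 to 4101 of all genes changed. The median log2 fold change of the set, -0.23, was -0.24 with DESeq2 size factors or the DESeq2 test, -0.37 with upper-quartile factors, -0.39 with total counts or log2(FPKM + 1), -0.40 with log2(FPKM + 0.1), -0.20 with no filter, -0.25 with at least 10 counts, -0.27 with the ALDOA sum, and between -0.25 and -0.19 when 1 library was left out. The median of all genes was then -0.15 with upper-quartile factors, -0.17 with total counts, -0.15 with log2(FPKM + 0.1) and -0.086 with log2(FPKM + 1). The cause was not tested.

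With the replicate number as a block 10 of the 34 genes and 3978 of all genes changed. The deviations of same-numbered libraries correlated at -0.048, 0.0072 and 0.0055, so that no effect shared by a number was seen. Whether same-numbered libraries were cultured or prepared together cannot be told from this. All 177 values of paralog and isoform shares under the alternatives kept their direction. Many of them came from leaving out a library, which cannot turn the direction of a share whose groups did not overlap. For such shares these values were fixed in advance and say nothing on stability. In families with only a pair of members, the share of either member also mirrors the other. The depth limits statements on LDHB, and the design of 3 against 3 limits the exact tests to p = 0.10.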
